A study of Mus musculus with 14 samples.

Results

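Exome sequencing of 12 p53null mouse mammary tumours listed 6 genes outside the MHC, the gene-dense region of antigen-presentation genes, that carried a protein-altering variant in every tumour of one experiment and in no tumour of the other. The genes are Amdhd1, Cmpk2, Ercc6l2, Ankle1, Atp10b and Exoc5. They were selected on exactly that pattern, at least 1 protein-altering variant in all 6 tumours of the host experiment and 0 in all 6 tumours of the gel experiment, and they are 6 of the 11711 genes outside the MHC with such a variant in at least 1 tumour (0.0512%). Because the contrast between host and gel tumours chose them, it is described below and not tested. Protein-altering means a variant that the deposited annotation gives a HIGH impact (such as a frameshift, a gained stop codon or a lost splice donor) or a MODERATE impact (such as a missense change or an in-frame insertion or deletion).

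All tumours grew from Balb/c p53null mammary fragments and were taken at a largest diameter of 2 cm. In the host experiment the fragments were placed in mammary fat pads of LysM-Cre GPX4 knockout (KO) mice (tumours B4, B5 and B6) or LysM-Cre GPX4 wild-type (WT) mice (B1, B2 and B3), and both kinds of host are labelled as carrying LysM-Cre, which acts in myeloid cells such as macrophages, so the knockout belongs to the host and not to the implanted epithelium. In the gel experiment the fragments, from donors of 8 to 10 weeks, went into cleared fat pads of wild-type females of 3 to 4 weeks that had received a collagen 1 and basement membrane (20%) hydrogel, either stiff, with the collagen crosslinked by 500 mM L-ribose (A7, A8 and A9), or soft and not crosslinked (A1, A2 and A3). The ages of the LysM-Cre hosts are not given, the tumours are called replicates only as separate samples, and whether any came from the same donor is not stated, so the p-values below measure the spread between these tumours. The 2 experiments differ in host, in the gel and possibly in the sequencing run, and these cannot be told apart.

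The 6 genes come from unrelated pathways. Amdhd1 encodes imidazolonepropionase, an enzyme of the liver pathway that breaks histidine down to glutamate. Cmpk2 encodes a mitochondrial nucleoside monophosphate kinase that is induced by interferon and supplies nucleotides for mitochondrial DNA, Ercc6l2 an Snf2-family ATPase that takes part in the repair of DNA double-strand breaks by end joining, and Ankle1 an endonuclease with ankyrin repeats and a LEM domain that cuts branched DNA. Atp10b encodes a P4-ATPase, a lipid flippase of late endosomes and lysosomes, and Exoc5, also known as Sec10, a subunit of the exocyst, which tethers secretory vesicles to the plasma membrane.

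The tables of variant counts give no position, base change, allele fraction or read depth, so the variants themselves cannot be shown, and inherited differences from the reference genome, somatic changes and false calls cannot be told apart. The start regions of the 3 genes with the highest mean protein-altering count in host tumours are shown for context, because variants annotated as upstream were counted for each of them in both experiments; the tables do not say whether any lies in these stretches. Each run is the 250 bases before the transcription start in RefSeq GRCm38.p6, 5′ to 3′ on the strand of the gene, with capitals marking CG dinucleotides, the sites of DNA methylation in mammals. They lie at chr10:93540034-93540283 (minus strand) for Amdhd1, chr12:26468965-26469214 (plus strand) for Cmpk2 and chr13:63814990-63815239 (plus strand) for Ercc6l2.

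Amdhd1: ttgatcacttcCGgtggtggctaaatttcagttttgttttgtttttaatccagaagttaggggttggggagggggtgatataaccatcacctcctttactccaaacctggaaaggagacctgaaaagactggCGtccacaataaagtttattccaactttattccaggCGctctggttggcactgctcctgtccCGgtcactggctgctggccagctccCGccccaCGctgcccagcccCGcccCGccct

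Cmpk2: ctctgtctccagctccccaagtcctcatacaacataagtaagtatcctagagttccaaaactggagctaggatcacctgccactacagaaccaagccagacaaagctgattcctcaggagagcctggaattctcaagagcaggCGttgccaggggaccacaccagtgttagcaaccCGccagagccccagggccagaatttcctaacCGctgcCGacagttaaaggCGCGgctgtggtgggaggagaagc

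Ercc6l2: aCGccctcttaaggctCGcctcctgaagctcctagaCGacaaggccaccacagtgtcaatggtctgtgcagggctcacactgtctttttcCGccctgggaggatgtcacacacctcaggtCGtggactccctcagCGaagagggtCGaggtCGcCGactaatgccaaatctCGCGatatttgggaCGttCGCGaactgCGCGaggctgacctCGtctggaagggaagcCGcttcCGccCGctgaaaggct

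The stretch held 8 CG dinucleotides in Amdhd1, 6 in Cmpk2 and 20 in Ercc6l2, against a median of 6 over 27025 mouse promoters (quartiles 2 and 16). Ankle1 had 16 and Exoc5 had 10, and Atp10b is named only.

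The protein-altering count was highest in Amdhd1. The gene (ENSMUSG00000015890, chromosome 10) has 1 protein-coding transcript in the tables, and it carried 2, 6 and 1 protein-altering variants in the KO tumours B4, B5 and B6, against 5, 9 and 11 in the WT tumours B1, B2 and B3. The means were 3 ± 2.65 in KO and 8.33 ± 3.06 in WT tumours (SD, n = 3 each). KO tumour B5, with 6, lay above WT tumour B1, with 5, so the groups overlapped. The HIGH variants among them numbered 0, 2 and 0 in KO, against 1, 4 and 3 in WT tumours. They were frameshifts in B5, B2 and B3 and a splice donor variant in each of the 3 WT tumours and in no KO tumour. Missense variants numbered 2, 3 and 1 in KO tumours and 4, 4 and 8 in WT tumours. Separations by single effect terms were not counted over all genes, so nothing is read from the splice donor and missense values.

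Ercc6l2 (ENSMUSG00000021470, chromosome 13) was the 1 gene of the 6 with a HIGH variant in every host tumour. Its protein-altering counts were 6, 2 and 9 in KO tumours, against 6, 4 and 3 in WT tumours, with means of 5.67 ± 3.51 in KO and 4.33 ± 1.53 in WT tumours (SD, n = 3 each). Both the highest and the lowest host value were in KO tumours, so the WT values lay inside the KO range. A frameshift was listed in 5 of the 6 host tumours, all but WT tumour B2, and a gained stop codon in 5, all but KO tumour B5. The count of a gene was taken as the maximum over its protein-coding transcripts, which for Ercc6l2 was set by ENSMUST00000238465 in every tumour. Transcript ENSMUST00000067821 carried 3, 2 and 7 in KO and 6, 3 and 2 in WT tumours. ENSMUST00000021925 and ENSMUST00000021926 each carried 0, 2 and 4 in KO and 4, 0 and 0 in WT tumours. The remaining protein-coding transcript, ENSMUST00000144763, carried 0 in all 12 tumours. With the median over transcripts in place of the maximum, Ercc6l2 did not meet the selection.

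Cmpk2 (ENSMUSG00000020638, chromosome 12) had 2, 2 and 5 protein-altering variants in KO tumours, against 1, 1 and 3 in WT tumours. The means were 3 ± 1.73 in KO and 1.67 ± 1.15 in WT tumours (SD, n = 3 each), with overlap between the groups. Its changes were mostly missense: 2, 2 and 3 in KO and 1, 1 and 3 in WT tumours. The single HIGH variant of the gene was a frameshift in KO tumour B6.

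Ankle1 (ENSMUSG00000046295, chromosome 8) had 3, 1 and 2 protein-altering variants in KO tumours, against 2, 1 and 1 in WT tumours. The means were 2 ± 1 in KO and 1.33 ± 0.577 in WT tumours (SD, n = 3 each), and the ranges overlapped. A gained stop codon was listed once in KO tumour B6 and once in WT tumour B2, and the other variants were missense. In WT tumour B2 the gained stop was the 1 protein-altering variant of this nuclease gene.

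Atp10b (ENSMUSG00000055415, chromosome 11) had exactly 1 protein-altering variant in each of the 3 KO and each of the 3 WT tumours, and no HIGH variant. It was a missense change in all 3 KO tumours and in WT tumours B2 and B3, and an in-frame deletion in WT tumour B1. A count of 1 is also the threshold of the selection, so the 6 tumours of this flippase gene lay just inside it. Whether the missense change was the same one in the 5 tumours cannot be read from the tables.

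Exoc5 (ENSMUSG00000061244, chromosome 14) had 1, 1 and 3 protein-altering variants in KO tumours, against 1, 3 and 1 in WT tumours, and the mean was 1.67 ± 1.15 in both groups (SD, n = 3 each). Of its 10 variants over the host tumours 6 were HIGH (60%), the highest share of the 6 genes. They lay in KO tumours B4 and B6 and in WT tumours B2 and B3. WT tumour B2 alone held 3 HIGH variants, with frameshift, gained stop and splice donor terms among them.

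**Figure D1:**
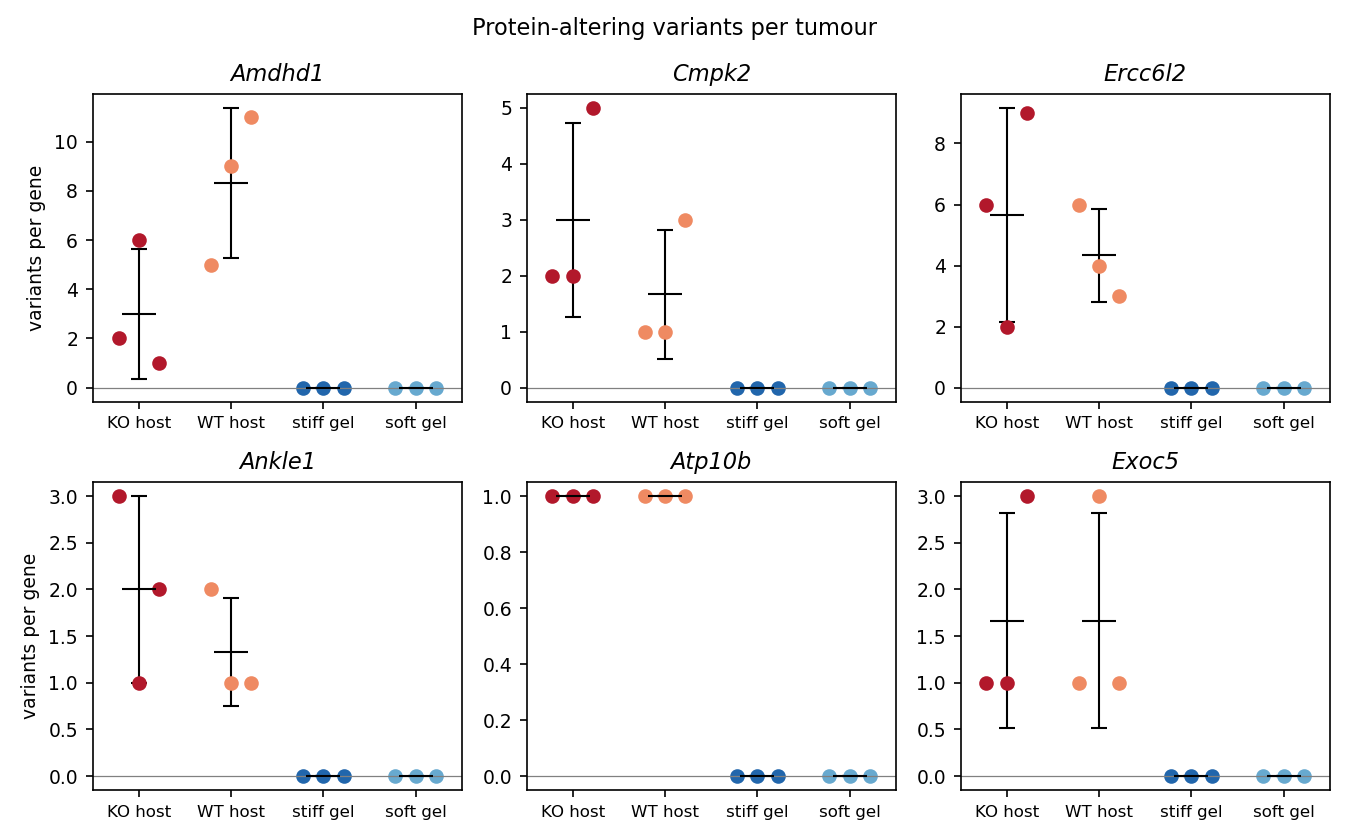
Protein-altering variants per gene (y axis, number of HIGH and MODERATE variants) in each tumour (points) of the KO host, WT host, stiff gel and soft gel groups, with the mean and SD of 3 tumours as bars. Amdhd1 reached 6 in KO and 11 in WT tumours, Atp10b stood at 1 in all 6 host tumours, and all gel tumours were at 0, as the selection requires.

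Over the 6 host tumours the genes together carried 104 protein-altering variants, of which 30 were HIGH (28.8%), against 27.2% over all protein-coding genes in the same tumours. The share of HIGH variants was 29.4% in Amdhd1, 36.7% in Ercc6l2, 20% in Ankle1, 7.14% in Cmpk2 and 0% in Atp10b. By predicted effect, the 6 genes had 68 missense terms, 17 frameshift terms in 4 genes, 10 gained stops in 3 genes and 4 splice donor terms in 2 genes. A variant can carry more than 1 such term, so terms can outnumber variants.

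**Figure D2:**
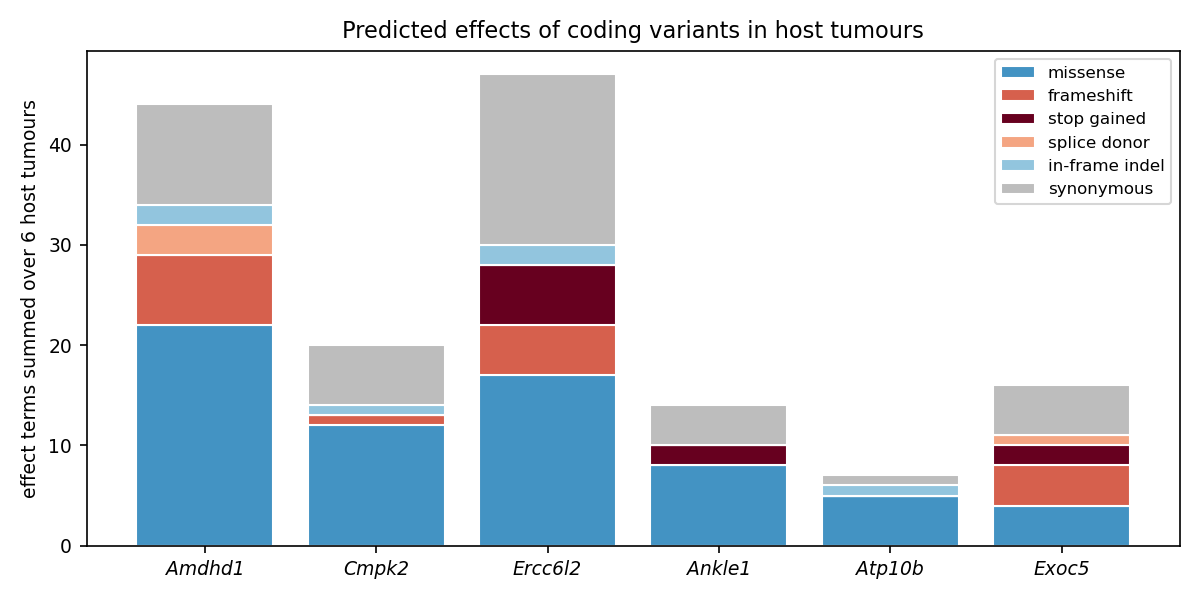
Effect terms of coding variants in each gene, summed over the 6 host tumours (y axis, number of terms; colours give the predicted effect). Missense terms were the most numerous protein-altering terms in Amdhd1, Cmpk2, Ercc6l2, Ankle1 and Atp10b, gained stops were found in Ercc6l2, Ankle1 and Exoc5, and Atp10b had neither a frameshift nor a gained stop.

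LOW-impact variants, most of them synonymous, come from the same contrast and are also described only. Amdhd1 had 1, 2 and 1 in KO tumours, against 3, 3 and 4 in WT tumours, so the KO tumours lay below the WT tumours without overlap. That separation was seen in 4.15% of the 4238 genes with at least 3 LOW variants over the host tumours, and the opposite one in 0.873%. Amdhd1, Cmpk2 and Atp10b had no LOW variant in any gel tumour. The other genes did, with 1 for Ercc6l2 in soft tumour A2, 1 for Ankle1 in each of the stiff tumours A7 and A9 and the soft tumour A3, and 2 for Exoc5 in soft tumour A3. Synonymous variants of the 6 genes summed to 43 in the host and 3 in the gel tumours. The genes were selected for having no protein-altering variant in gel tumours. How many of all genes lack LOW variants there was not counted, so nothing is read from these host and gel values.

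The pattern was rare, and counts of such genes were uneven between the experiments. Of the genes outside the MHC, 1857 were altered in 1 host tumour and in no gel tumour, 643 in 2, 230 in 3, 92 in 4, 37 in 5 and 6 in all 6. The same count for gel tumours with no host tumour was 1973, 387, 76, 16, 5 and 0. Of all 11835 altered genes, MHC included, 6296 had a higher mean in host than in gel tumours and 4146 a lower one. The part of this general difference in the uneven counts was not tested. Inside the MHC the pattern was met by Ring1, a Polycomb gene, with 1, 7 and 1 variants in KO and 3, 1 and 4 in WT tumours.

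**Figure D3:**
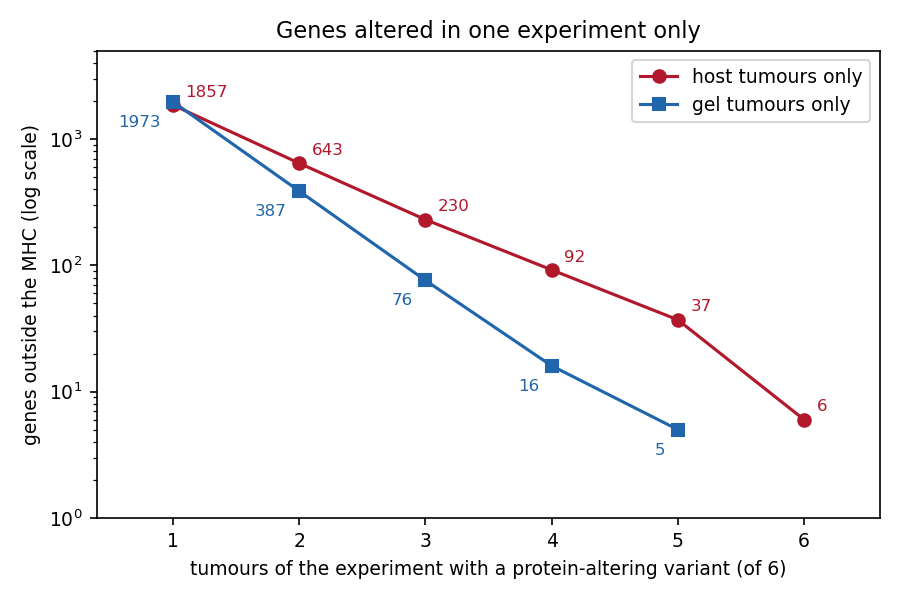
Number of genes outside the MHC (y axis, log scale) altered in 1 to 6 tumours of one experiment (x axis) and in no tumour of the other, for host tumours and gel tumours. The host line ended at 6 genes in 6 tumours, whereas the gel line ended at 5 genes in 5 tumours, since no gene was altered in all 6 gel tumours and no host tumour.

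Genes just outside the selection, matching it in 11 of the 12 tumours, numbered 52. In 37 of them 1 host tumour was at 0, most often KO tumour B5 (15 genes), which also had the fewest protein-altering variants of the host tumours; the part of that total in the count was not tested. In the other 15 genes 1 gel tumour was above 0. The pattern would be met by 21 genes without B5, 15 without B3, 12 without B4, 11 without B2 and 10 without A2, and by construction all 6 genes stay among them. The nearest by mean host count was Tas2r105, a bitter taste receptor, with 12, 0 and 6 in KO and 11, 10 and 10 in WT tumours and 0 in all gel tumours. Chsy3, a chondroitin synthase, had 9, 3 and 4 in KO and 4, 4 and 10 in WT tumours, and 4 in stiff tumour A9. Dclk3, a kinase of the doublecortin-like family, had 5, 4 and 7 in KO and 2, 5 and 7 in WT tumours, but 13 in soft tumour A2. Gm9049 had 5, 0 and 7 in KO and 3, 6 and 6 in WT tumours, and Ldlrad2 had 4, 4 and 7 in KO and 4, 3 and 0 in WT tumours, both with 0 in all gel tumours. Mfsd7a had 1, 4 and 4 in KO and 4, 4 and 4 in WT tumours, and 3 in soft tumour A3.

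None of the genes next to the 6 on their chromosomes met the pattern, which is rare among all genes. Hal, which encodes histidine ammonia-lyase, the first enzyme of histidine breakdown, lies beside Amdhd1 and was altered in 3 host and 2 gel tumours. Ccdc38, on the other side of Amdhd1, was altered in all 12. Rsad2, the interferon-induced antiviral gene beside Cmpk2, was altered in 3 host and 2 gel tumours, and Ptch1, the Hedgehog receptor beside Ercc6l2, in 4 host and 5 gel tumours. Hsd17b3, on the other side of Ercc6l2, was altered in 3 host tumours and no gel tumour. Gabrb2, beside Atp10b, had no protein-altering variant in any tumour, and Otx2 and Ap5m1, which flank Exoc5, were each altered in 3 host tumours and 1 gel tumour.

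The other genes of each pathway are given from lists drawn up around the 6 genes. With the pattern in 0.0512% of all altered genes, lists of this size say nothing about the pathways. Among 10 genes of histidine metabolism in the tables, 6 had a protein-altering variant in some tumour, 2 in all 6 host tumours, and of these Amdhd1 alone had none in gel tumours. Of 30 nucleotide kinase and interferon-linked genes 3 were altered in all 6 host tumours, and Cmpk2 alone of these was unaltered in the gel tumours; Nme3, a nucleoside diphosphate kinase, had 1 in each of the 12. Among 19 Snf2-family ATPases 4 were altered in all host tumours, Ercc6l2 and Ino80, Rad54l2 and Btaf1, and the last 3 were also altered in all gel tumours. Ino80, the ATPase of a chromatin remodeller, had 5, 8 and 11 in KO, 8, 11 and 7 in WT, 9, 6 and 9 in stiff and 6, 9 and 7 in soft tumours.

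Among 14 genes of LEM-domain proteins and branched-DNA nucleases, Ankle1 and Ankle2 were altered in all host tumours, and Ankle2 also in all gel tumours. Of 18 flippase genes 3 were altered in all host tumours, and Atp10b was the 1 of these with none in the gel tumours. Of 15 exocyst genes in the tables, Exoc5 and Exoc6 were altered in all host tumours. Exoc6 had 9, 11 and 12 in KO and 10, 13 and 12 in WT tumours, and also 9, 11 and 6 in stiff and 9, 12 and 11 in soft tumours. Over all protein-coding genes, 1855 were altered in all 6 host tumours and 1593 in all 12.

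The knockout in the hosts' myeloid cells was set against wild type within the host experiment. The selection did not use that split, but it used the protein-altering counts of the same tumours and required at least 1 in each, so no gene could be at 0 in either group, and the protein-altering values are limited by that choice. None of the 6 genes passed edgeR's quasi-likelihood test on these counts, and all 6 overlapped between KO and WT tumours, from which nothing is read. Amdhd1 had the largest estimate, a log2 fold change of -1.44 (SE 0.63) for KO over WT tumours, with an unadjusted p of 0.0743 and an adjusted p of 1. The estimates were 0.80 (SE 0.62) for Cmpk2, 0.54 (SE 0.49) for Ankle1 and 0.38 (SE 0.58) for Ercc6l2, and 0 for Atp10b and Exoc5, all with an adjusted p of 1. Over the 5309 genes tested 0 passed an adjusted p of 0.05 (0%), by edgeR and by DESeq2, while 199 had an unadjusted p under 0.05 in edgeR, 26 higher and 173 lower in KO tumours, and 27 in DESeq2. KO tumours lay below WT tumours without overlap in 4.26% of these genes and above in 0.735%. The median log2 fold change over all genes tested was -0.31, so the estimates stand beside lower counts in KO tumours in general. With library sizes set to the class totals that median was 0.00 and the genes under an unadjusted p of 0.05 split into 69 higher and 127 lower. The 199 genes became 219 without KO tumour B6, 151 without B4 and 122 without B5. They became 108 without WT tumour B1 and 141 without B2 or without B3.

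MODIFIER variants, which lie in introns, untranslated regions and flanks, were not part of the selection rule, although they come from the same tumours. All 6 genes were listed with variants in all 12 tumours. Amdhd1 had 49, 55 and 87 MODIFIER variants in KO and 112, 66 and 49 in WT tumours, and 33, 16 and 35 in stiff against 53, 55 and 58 in soft tumours. Stiff tumours lay below soft tumours without overlap for this gene, and the KO and WT values overlapped. Ercc6l2 had 42, 32 and 84 in KO and 105, 87 and 94 in WT tumours, and 37, 23 and 17 in stiff against 39, 47 and 25 in soft tumours. Exoc5 had 58, 30 and 69 in KO and 107, 80 and 76 in WT tumours, and 43, 16 and 22 in stiff against 53, 72 and 38 in soft tumours. For Ercc6l2 and Exoc5 every KO tumour lay below every WT tumour, and the stiff and soft values overlapped.

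The other genes overlapped in both comparisons. Cmpk2 had 17, 12 and 66 in KO and 28, 28 and 49 in WT tumours, and 18, 13 and 2 in stiff against 9, 11 and 24 in soft tumours. Atp10b had 7, 1 and 18 in KO and 18, 18 and 8 in WT tumours, and 4, 2 and 9 in stiff against 7, 13 and 6 in soft tumours. Ankle1 had 4, 4 and 16 in KO and 16, 6 and 5 in WT tumours, and 8, 8 and 0 in stiff against 14, 2 and 3 in soft tumours. KO tumour B6 was the highest KO tumour for each of the 6 genes, and it also had the most MODIFIER variants of the KO tumours over all genes.

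**Figure D4:**
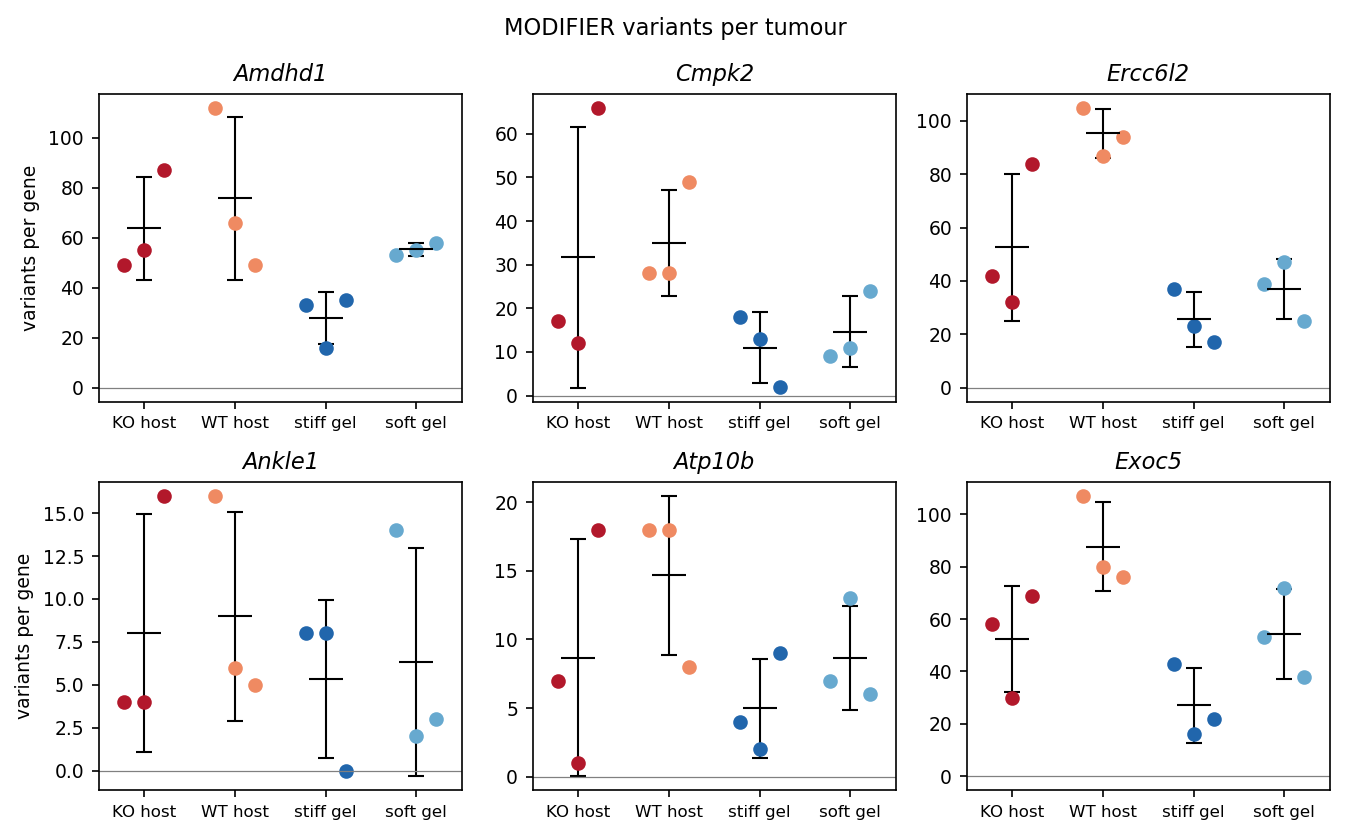
MODIFIER variants per gene (y axis, number of intronic, untranslated and flanking variants) in each tumour (points) of the KO host, WT host, stiff gel and soft gel groups, with the mean and SD of 3 tumours as bars. KO tumours lie below WT tumours without overlap in Ercc6l2 and Exoc5, and stiff tumours below soft tumours without overlap in Amdhd1.

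KO tumours lay below WT tumours without overlap in 6.83% of the 19331 genes tested, and above in 1.01%, against 2 and 0 of the 6 genes. Stiff tumours lay below soft tumours in 8.12% of 19525 genes and above in 1.74%, against 1 and 0 of the 6. All MODIFIER variants of a tumour summed to 428066, 334678 and 633594 in KO and 695818, 589955 and 511983 in WT tumours, which overlapped, and to 379517, 357191 and 335629 in stiff and 381482, 452751 and 410581 in soft tumours, which did not. The part of these totals in the separations was not tested.

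In edgeR the MODIFIER counts of KO over WT tumours gave log2 fold changes of -0.85 (SE 0.37, adjusted p 0.858) for Ercc6l2, -0.75 (SE 0.75, adjusted p 0.861) for Atp10b and -0.74 (SE 0.35, adjusted p 0.858) for Exoc5. Those of Amdhd1, Ankle1 and Cmpk2 were -0.25, -0.17 and -0.14, with a median of -0.30 over all genes, and turned positive when library sizes were set to the class totals, which put the median of all genes at 0.06. No gene passed (0% of 19331), with 156 higher and 735 lower under an unadjusted p of 0.05. With class totals that split was 520 higher and 583 lower, without KO tumour B6 it was 105 and 2986, and without WT tumour B1 or B2 it was 177 and 312 or 115 and 429. Adjusted calls numbered 35 with class totals and 35 by DESeq2, none of them among the 6.

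Stiff over soft tumours gave -1.01 (SE 0.38, unadjusted p 0.028, adjusted p 0.564) for Exoc5 and -0.98 (SE 0.27, unadjusted p 0.0066, adjusted p 0.429) for Amdhd1. The remaining estimates were -0.78 for Atp10b, -0.53 for Ercc6l2, -0.41 for Cmpk2 and -0.24 for Ankle1, and the median over all genes was -0.16. Again no gene of the 19525 passed (0%), with 188 higher and 1411 lower under an unadjusted p of 0.05 (615 and 895 with class totals). DESeq2 called 24 genes, and edgeR called 4 when soft tumour A2 was left out, none of them among the 6. DESeq2 gave no adjusted p for Cmpk2, Ankle1 and Atp10b, so these could not be called by it. The difference between the KO over WT and the stiff over soft change was called for 10 of 20757 genes (0.0482%) and for none of the 6, whose adjusted p was 1 each. Leaving out 1 tumour gave 5 to 13 such genes, with 5 without B1, A7, A8, A1 or A3.

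**Figure D5:**
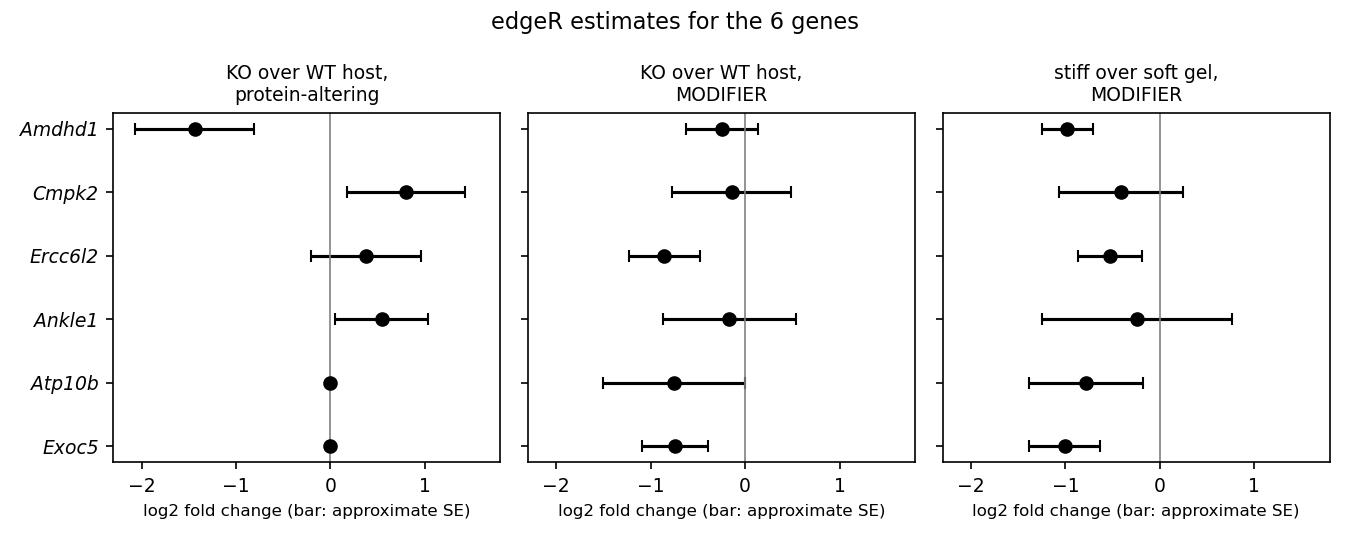
edgeR log2 fold changes (x axis) of the 6 genes for KO over WT host tumours, protein-altering and MODIFIER variants, and for stiff over soft gel tumours, MODIFIER variants, with approximate SEs as bars (none for Atp10b and Exoc5 in the first panel). All points lie below 0 in both MODIFIER panels, where the medians over all genes were -0.30 and -0.16, and no gene passed an adjusted p of 0.05. With library sizes set to the class totals, the KO over WT MODIFIER estimates of Amdhd1, Cmpk2 and Ankle1 were above 0. The other MODIFIER estimates stayed below 0.

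Between experiments the mean MODIFIER count was higher in host than in gel tumours for each of the 6 genes, by 2.60-fold in Cmpk2, 2.36-fold in Ercc6l2, 1.72-fold in Exoc5, 1.71-fold in Atp10b, 1.67-fold in Amdhd1 and 1.46-fold in Ankle1. The median over 17306 genes with at least 12 MODIFIER variants was 1.17 (quartiles 0.857 and 1.61). Host and gel tumours overlapped in each of the 6, and every host tumour lay above every gel tumour in 131 of the 17306 genes (0.757%), so the overlap in these 6 is not a result about them. Upstream variants of Cmpk2 numbered 11, 3 and 10 in KO, 15, 11 and 18 in WT, 0, 6 and 2 in stiff and 1, 4 and 16 in soft tumours. The 6 genes together had 1075 intron terms in the host and 530 in the gel tumours, and intron terms of all genes were not counted in gel tumours. Since the contrast between host and gel tumours chose the 6 genes, these MODIFIER values are described and were not tested.

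The 6 genes were also set against the totals of the host tumours. Their protein-altering variants summed to 15, 13 and 21 in KO and 16, 19 and 20 in WT tumours, which was 13.8, 15.6 and 14.2 per 10000 in KO and 9.67, 13.5 and 15.9 per 10000 in WT tumours. The lowest share was in WT tumour B1, which had the most protein-altering variants of all 12 tumours, 16544. Totals ran from 8317 in KO tumour B5 to that value in host tumours, and from 9000 in stiff tumour A9 to 11672 in soft tumour A2 in gel tumours.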

How the data were processed

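DNA of 12 tumours was sequenced after exon capture with the SureSelectXT mouse kit, in 150 bp read pairs, above 50x (6 Gb each) per the labels' protocols; 2 tail samples were not analysed here. GATK, BWA 2.2.1 and SAMtools 1.19.2 were applied on build GRCm39, per the submitters' processing notes. How variants were called and filtered, and whether the tails served as matched normals, is not given in the sources used here. Whole-number counts of variants per transcript, by impact and effect, were deposited by the authors, per the file headers. Columns for gained, lost or retained start and stop codons are other deposited values, used as effect terms and not tested. The depth behind a count is unknown.

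The count of a gene was the maximum over its protein-coding transcripts within each impact class, and an unlisted transcript was taken as 0. Protein-altering is HIGH plus MODERATE. The MHC was the stretch of chromosome 17 from the first to the last H2- gene. Genes reaching 3 variants in sum over the compared tumours were tested with edgeR 4.0.16 in R 4.3.3, by quasi-likelihood with library sizes set equal and p-values adjusted by Benjamini-Hochberg over all of them (threshold 0.05). An approximate SE was taken as the size of the log2 fold change divided by the root of F. DESeq2 1.42.0, other scalings, filters, impact classes and transcript rules, and leaving out each tumour, were the alternatives.

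The members and the gene lists were chosen with earlier results of these data known. The genes named are the 6, up to 6 genes that match the pattern in 11 of 12 tumours by mean host count, the neighbours on either side, and up to 3 other genes of each of 6 lists with the highest mean; a selection is printed. Promoters are from RefSeq GRCm38.p6 and matched 5 of the 6 genes; the part after the start was left out.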

Additional observations from a re-analysis of the deposited data

Results flagged for a closer look

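A transcript outside the protein-coding set carried a count that the comparisons do not use. The retained-intron transcript ENSMUST00000160833 of Exoc5 had 1 variant of HIGH or MODERATE impact in WT tumour B2 and 0 in the other 11 tumours, gel tumours included. The protein-coding transcripts of Exoc5 carried 3 in the same tumour. Whether the 1 variant is among those 3 cannot be told, since positions are not given. Groups of 3 tumours are too small for a check of single outlying tumours.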

How the results depend on the processing

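The number of genes with the pattern was 6, and 1 with HIGH variants alone or with at least 2 variants in every host tumour, Ercc6l2 in both. It ran from 7 to 21 when 1 tumour was left out, with all 6 genes kept: 12, 21, 11 and 15 without B4, B5, B2 and B3, and 10 without A2. Without A9 and B5 together, an alternative chosen after seeing the data, it was 25. With LOW variants included it was 9, with 3 of the 6 genes among them, and with MODERATE variants alone 6, with 4 of them. With the median over transcripts it was 5, all among the 6, and the gene lost was Ercc6l2. Its protein-coding transcripts ENSMUST00000021925, ENSMUST00000021926 and ENSMUST00000144763 carried 0 protein-altering variants in B4, B2 and B3. Genes called in KO against WT MODIFIER counts numbered 0, and 35 with class totals, 26 with TMM, 35 with DESeq2 and 4 with a sum of at least 12 (0 to 0 leaving out 1 tumour). For stiff against soft they numbered 0, 24 with DESeq2 and 0 to 4 leaving out 1 tumour, 4 without A2. For the difference of the changes they numbered 10, 18 with class totals and 5 to 13 leaving out 1 tumour. None of the 6 genes was called in KO against WT or stiff against soft under the settings that gave it a value; for the difference of the changes the 6 were examined under the reported setting alone. The KO over WT MODIFIER log2 fold change turned positive with class totals (Amdhd1 0.16, Cmpk2 0.071, Ankle1 0.16), TMM (Amdhd1 0.081, Cmpk2 0.022, Ankle1 0.10) and DESeq2 (Amdhd1 0.10, Ankle1 0.10). Leaving out 1 tumour it ran from -0.54 to 0.15 for Amdhd1, -1.26 to 0.24 for Cmpk2, -1.15 to 0.53 for Ankle1, -1.84 to -0.23 for Atp10b, -1.36 to -0.60 for Ercc6l2 and -0.99 to -0.46 for Exoc5. For stiff over soft it ran from -0.96 to 0.14 for Cmpk2, -0.66 to 1.06 for Ankle1, -1.49 to -0.37 for Atp10b, -0.88 to -0.30 for Ercc6l2, -1.51 to -0.74 for Exoc5 and -1.17 to -0.70 for Amdhd1. For protein-altering KO over WT it ran from -0.11 to 0.77 for Ercc6l2, -2.38 to -1.04 for Amdhd1, 0.25 to 1.47 for Cmpk2, 0.16 to 0.92 for Ankle1 and -0.67 to 0.67 for Exoc5, and was 0 throughout for Atp10b. The cause of these changes was not tested. With a sum of at least 12, Ankle1, Atp10b and Exoc5 dropped out of the protein-altering test. No paired analysis was possible because the groups compared share no replicate number. Unknown depth limits what a count of 0 shows.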
